A study of Mus musculus with 12 samples.

Results

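The 10 genes described here encode small and large heat shock chaperones and were chosen by name as rows of the count table: Hspb1, Hspb6, Hspb7, Hspb8, Cryab, Hspa1a, Hspa1b, Hspa8, Hsp90aa1 and Dnajb1. All 10 were found among 49568 genes, and all 10 passed the filter on low counts that left 14712 genes for testing. RNA from cardiomyocytes of male mice was sequenced in 4 groups of 3 libraries. The dKO TAC and dKO sham groups had the genotype MHC-MerCreMre/+; Mrtf-a-/-; Mrtf-bflox/flox, and the control TAC and control sham groups had the genotype alphaMHC-MerCreMre/+. TAC, or trans-aortic constriction, narrows the aorta so that the ventricle pumps against a higher pressure, and sham mice had surgery without the narrowing. The labels of all 4 groups give tamoxifen at 8 weeks of age, as 3 daily injections of 30 ug/g, and hearts taken 7 days after surgery at 11 weeks. The labels put surgery at 10 weeks, whereas the series' design text puts it at 8 weeks. The Cre transgene, which both genotypes carry, is driven by the cardiomyocyte promoter of alpha myosin heavy chain, so it removes Mrtf-b in cardiomyocytes, whereas Mrtf-a is missing from every cell of the dKO mice. The control label lists no floxed allele.

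Heat shock proteins bind unfolded or damaged proteins. The small heat shock proteins (Hspb1, Hspb6, Hspb7, Hspb8 and Cryab) hold clients without ATP, are abundant in heart muscle and associate there with actin, desmin and other parts of the sarcomere and cytoskeleton. HSP70 proteins (Hspa1a, Hspa1b, Hspa8) refold clients with ATP, HSP40 proteins such as Dnajb1 deliver clients to HSP70 and stimulate its ATPase, and HSP90 (Hsp90aa1) completes the folding of kinases and steroid receptors. The heat-inducible genes are switched on by heat shock factor HSF1, which binds repeats of a short heat shock element. MRTF-A and MRTF-B, by contrast, are actin-regulated partners of SRF, which binds the CArG box. The table lists their genes as Mkl1 and Mkl2.

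The 250 bases upstream of 3 of the genes are shown because they hold a pair of the short repeats that make up heat shock elements and because Hspa1a and Hspa1b are close copies. Capitals mark matches to a pair of heat shock repeats (GAANNTTC or TTCNNGAA, both strands), and the sequences are RefSeq's.
Hspa1a (GRCm38.p6, chr17:34972157-34972406, minus strand): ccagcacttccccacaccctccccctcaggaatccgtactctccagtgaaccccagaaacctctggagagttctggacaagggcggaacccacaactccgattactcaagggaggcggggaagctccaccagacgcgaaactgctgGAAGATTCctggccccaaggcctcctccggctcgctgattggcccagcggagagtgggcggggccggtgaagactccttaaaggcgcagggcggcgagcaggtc
Hspa1b (GRCm38.p6, chr17:34959239-34959488, minus strand): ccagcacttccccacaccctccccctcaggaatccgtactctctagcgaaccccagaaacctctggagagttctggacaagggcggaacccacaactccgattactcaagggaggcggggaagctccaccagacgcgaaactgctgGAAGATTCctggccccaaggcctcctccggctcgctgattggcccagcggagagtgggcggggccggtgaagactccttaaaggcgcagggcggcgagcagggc
Hspb1 (GRCm38.p6, chr5:135887669-135887918, plus strand): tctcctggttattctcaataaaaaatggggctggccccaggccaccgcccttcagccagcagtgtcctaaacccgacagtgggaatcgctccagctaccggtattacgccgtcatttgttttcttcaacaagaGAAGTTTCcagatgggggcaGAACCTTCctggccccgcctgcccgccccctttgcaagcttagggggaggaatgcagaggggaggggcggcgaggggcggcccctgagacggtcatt

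The Hspa1a and Hspa1b sequences were identical at 247 of 250 positions. Counted from 1 at the 5′ end of the printed sequence, Hspa1b differed from Hspa1a by C44T, T47C and T249G. Both capitalised matches began 104 bases before the start, and the Hspb1 sequence held 2 matches, the first beginning 117 bases before the start. RefSeq's promoter table held 7 of the 10 genes. Of these, 5 genes (Hspa1a, Hspa1b, Hspb1, Hspb6 and Hspb8) had the pair of repeats in the window from 250 bases before to 50 after a start, as did 15.1% of 32851 promoters of that length. The triple repeat (GAANNTTCNNGAA, both strands), which contains the pair, was in 0 of the 7 genes and in 0.603% of promoters. A CArG box was in 0 of the 7 genes and in 1.63% of promoters. Cryab, Hspa8 and Hsp90aa1 were not matched.

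In GRCm38 (GENCODE M21), the gene of HSP90 alpha, Hsp90aa1, lies at chr12:110690605-110702728 on the minus strand with 11 exon blocks, and Hspb7 at chr4:141420779-141425311 on the plus strand with 3. Hspa1a (chr17:34969190-34972156) and Hspa1b (chr17:34956436-34959238) are single-exon genes on the minus strand. Cryab lies at chr9:50751325-50756636 and Hspa8 at chr9:40800984-40810087, both on the plus strand. Hspb1 (chr5:135887919-135889563, plus strand) and Hspb8 (chr5:116408491-116422864, minus strand) share a chromosome, and Hspb6 (chr7:30552178-30555443) and Dnajb1 (chr8:83608193-83612653) lie on plus strands. The values below are counts over the exons of these genes.

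Total counts were 20082000 to 29675212 per library. Mkl1 checked the genotype labels: it had 2.5, 2.93 and 2.22 CPM (counts scaled to library size, with sizes adjusted by the TMM method) in dKO TAC, against 9.32, 16.01 and 15.6 CPM in control TAC, and 2.15, 2.88 and 3.20 CPM in dKO sham, against 7.59, 11.4 and 8.89 CPM in control sham. In edgeR's quasi-likelihood test with Benjamini-Hochberg adjustment over 14712 genes, Mkl1 was lower in dKO after TAC (log2 fold change -2.42, adjusted p = 0.00182) and after sham (-1.75, adjusted p = 0.0409). Mkl2, whose floxed part the table does not count apart, averaged 23.6 ± 5.05 CPM in dKO TAC and 34.3 ± 3.74 CPM in control TAC, and 21.8 ± 5.92 CPM in dKO sham and 40.3 ± 6.67 CPM in control sham (SD, n = 3 each). It was not called (edgeR, adjusted p = 0.518 after TAC and 0.507 after sham). The libraries dKO TAC replicate 2 and dKO sham replicate 1 stood apart. In them long transcripts were under-represented relative to the other libraries of their group, with a Spearman correlation of deviation with exon length of -0.598 in dKO TAC replicate 2 and -0.621 in dKO sham replicate 1 over 9741 genes, against 0.457 to 0.648 in the other dKO libraries and -0.104 to 0.114 in the control libraries. They also had 15.3% and 16.5% of counts from mitochondrially encoded genes, against 23.2% to 32.6% in the other libraries. The 8 cardiomyocyte markers summed to 42927 to 49619 CPM in dKO TAC, against 58055 to 132938 CPM in dKO sham, and to 40798 to 68170 CPM in control TAC, against 53856 to 72677 CPM in control sham. The groups did not overlap in dKO and overlapped in control. The 8 fibroblast markers, none of them at 0, summed to 2871 to 3965 CPM in dKO TAC, against 285 to 686 CPM in dKO sham, and to 1143 to 10007 CPM in control TAC, against 401 to 844 CPM in control sham. The libraries are bulk, so fewer cells of a type and less RNA per cell cannot be told apart.

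Per kilobase of exon, Cryab and Hspb7 had the highest mean levels of the 10. Cryab, which encodes alpha-B-crystallin, a chaperone of desmin, averaged 1344 CPM per kb over the 12 libraries, and Hspb7, a small heat shock protein largely restricted to striated muscle, averaged 1191 CPM per kb. Their ranges over libraries overlapped, at 858 to 2912 CPM per kb for Cryab and 625 to 1774 CPM per kb for Hspb7. Hspb6 followed at 459, Hspb8 at 272, Hspb1 at 222 and Hspa8 at 216 CPM per kb, and the ranges of Hspb8, Hspb1 and Hspa8 overlapped. Of the 100-nt windows (the read length) of the transcripts, 42.7% for Hspb1 and 63.4% for Hspa8 also occur in other genes. For Hspb6, Hspb7 and Hspb8 the share is 0%. How shared reads were counted is not known, so the place of Hspb1 and Hspa8 in this order is uncertain. By group mean, Hspb1 was above Hspa8 in dKO TAC and dKO sham. Hspa8 was above Hspb1 in control TAC (218 CPM per kb, against 202 for Hspb1) and control sham (199.5, against 185). The dKO order rested on the libraries that stood apart, with 368 CPM of Hspb1 in dKO TAC replicate 2 and 464 CPM in dKO sham replicate 1. The other dKO libraries had 166 to 202 CPM of Hspb1. A lower tier of 4 genes held Hsp90aa1 at 27.0, Dnajb1 at 21.6, Hspa1a at 10.6 and Hspa1b at 7.53 CPM per kb. The tiers do not divide the genes by heat inducibility, since the HSF1 target list used below also holds Hspb1, Cryab, Hspb8 and Hspa8. Windows shared with other genes were 47.5% for Hsp90aa1, 56.5% for Hspa1a, 49.9% for Hspa1b and 0% for Dnajb1. The levels of the first 3 of these are therefore uncertain as well. The highest value of the lower tier in any library, Hsp90aa1 at 47.9 CPM per kb, was below the lowest value of each of the other 6 genes. Depth did not limit these genes: the smallest count was 84 reads, for Hspa1b.

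**Figure D1:**
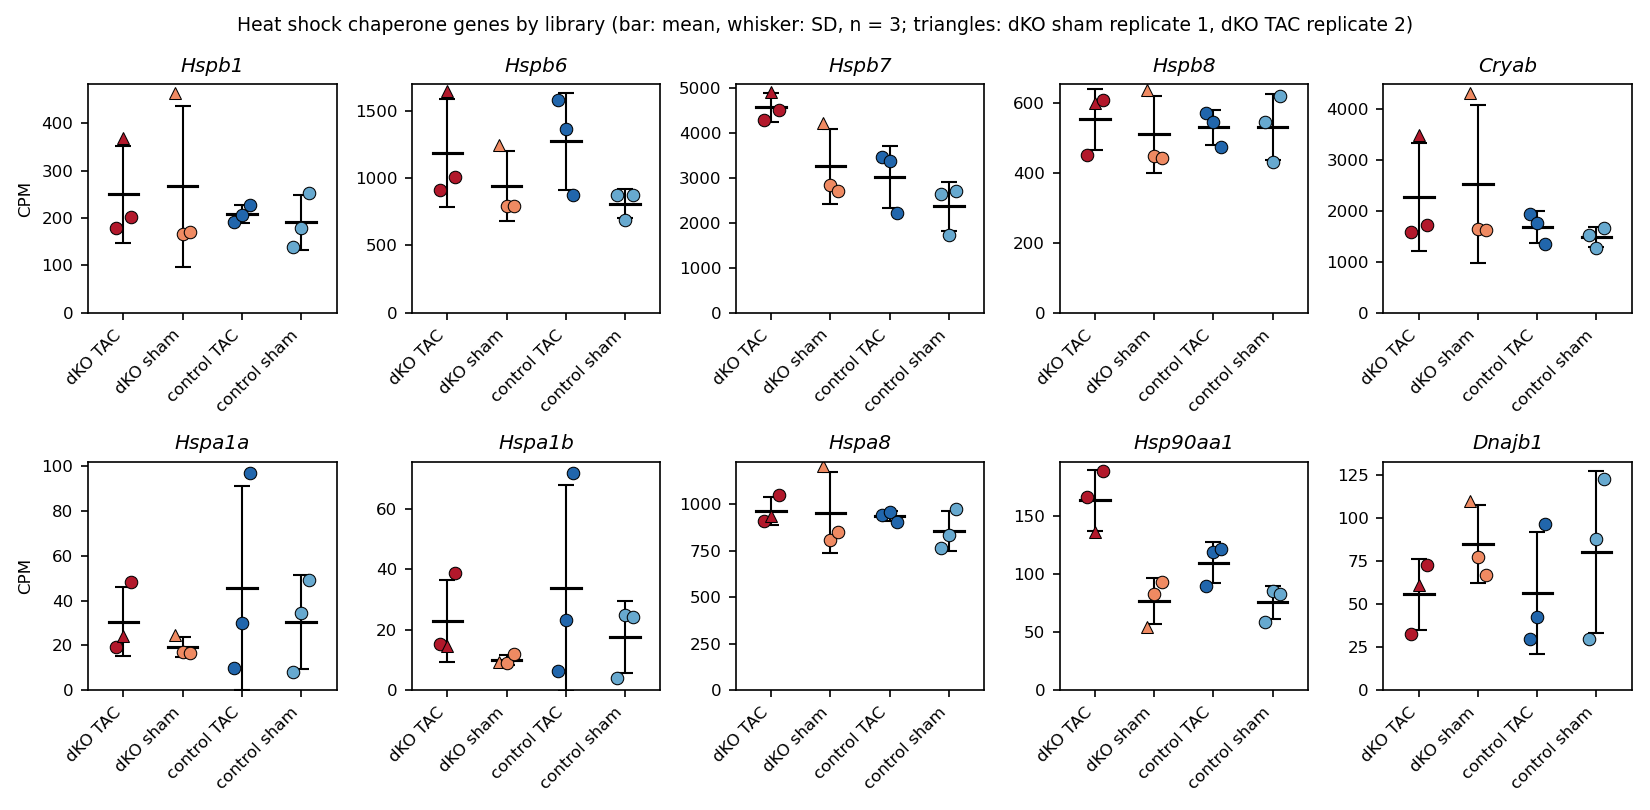
CPM of each of the 10 chaperone genes (linear axes from 0), with groups from left to right dKO TAC, dKO sham, control TAC and control sham; points are libraries, the bar is the mean and the whisker the SD (n = 3). Triangles mark dKO TAC replicate 2 and dKO sham replicate 1. Hsp90aa1 is highest in dKO TAC, whereas the triangles lead Hspb1 and Cryab in the dKO groups.

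The main change among the 10 genes was in Hsp90aa1, which encodes the stress-inducible cytosolic HSP90. It had 165.6, 136 and 188 CPM in dKO TAC, against 54.4, 82.3 and 93.2 CPM in dKO sham. In control TAC it had 89.4, 118 and 121 CPM, against 58.7, 84.8 and 82.2 CPM in control sham. In both genotypes every TAC library was above every sham library, and every dKO TAC library was above every control TAC library. The means were 163 ± 26.4 CPM in dKO TAC and 76.7 ± 20.01 CPM in dKO sham (SD, n = 3 each), a log2 fold change of 1.09 ± 0.24 (SE). That rise passed edgeR's quasi-likelihood test (adjusted p = 0.0193). In control TAC the mean was 109.6 ± 17.5 CPM and in control sham 75.3 ± 14.4 CPM (SD, n = 3 each). That log2 fold change of 0.54 ± 0.23 did not pass (edgeR, adjusted p = 0.262), and the difference between the genotypes' TAC effects did not pass either (interaction 0.55 ± 0.33, adjusted p = 0.841). Averaged over genotypes, TAC raised Hsp90aa1 by 0.82 ± 0.17 on the log2 scale (edgeR, adjusted p = 0.0071). The direct comparison of dKO TAC with control TAC gave 0.57 ± 0.23 (edgeR, adjusted p = 0.475).

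The call in dKO ended without dKO TAC replicate 1 (log2 1.08, edgeR adjusted p = 0.078), without dKO TAC replicate 3 (0.98, adjusted p = 0.0788) and when only dKO libraries entered the fit (1.09, adjusted p = 0.0606), with an estimate of similar size each time. It held without the libraries that stood apart (log2 1.01, adjusted p = 0.0176), and the call averaged over genotypes held in every alternative run. The exon length of Hsp90aa1 is 3931 nt and it was 0.62 times the mean of the other 2 libraries in dKO sham replicate 1 and 0.767 times in dKO TAC replicate 2. The fibroblast marker sum was higher in all TAC than in all sham libraries of both genotypes. The cardiomyocyte marker sum was lower in all dKO TAC than in all dKO sham libraries. Of the 8 cardiomyocyte markers, 6 had negative and 2 positive estimates for TAC in dKO. The part of either cell type in the rise of Hsp90aa1 was not tested. Of 100-nt windows of its transcript, 47.5% also occur in 3 pseudogenes, which held counts equal to 1.06% of those of Hsp90aa1.

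Among all 10 genes, TAC in dKO gave 1 called gene, against 7.39% of all tested genes called in either direction. TAC in control gave 0 of 10, with 1 of 10 at an unadjusted p under 0.05 (DESeq2 called 0, limma-voom 0), against 2.25% of all genes. For TAC averaged over genotypes 1 of 10 was called, against 16.6% of all genes. Genes whose TAC libraries were all above all sham libraries numbered 3 of 10 in dKO (Hsp90aa1, Hspb7 and Hspa1b), where 30.7% of all genes did not overlap in either direction and 16.2% were above. In control the number was 1 of 10 (Hsp90aa1), where 21.8% did not overlap and 11% were above. None of the 10 was below. The median log2 difference of the 10 genes for TAC was 0.23 in dKO and 0.27 in control, against -0.01 and 0.00 over all tested genes.

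**Figure D2:**
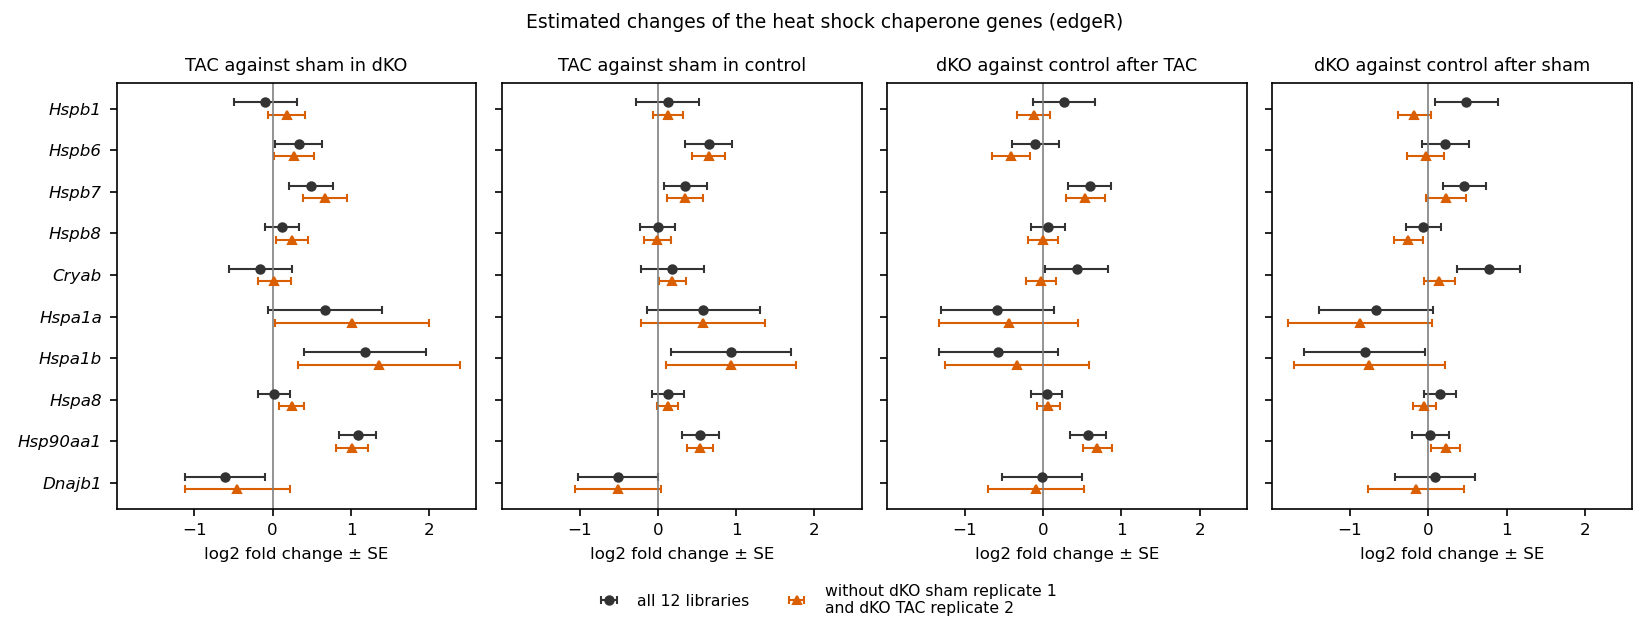
log2 fold change ± SE (edgeR) of each chaperone gene in the 4 pairwise comparisons, with all 12 libraries (circles) and without dKO TAC replicate 2 and dKO sham replicate 1 (triangles). The Hsp90aa1 estimate for TAC in dKO is 1.09 with all libraries and 1.01 without those libraries, whereas the Cryab estimate for dKO after sham is 0.77 with them and 0.14 without.

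Hspb7, which binds filamin and influences thin filaments, was highest in dKO TAC. It had 4273, 4913 and 4501 CPM in dKO TAC, against 4211, 2840 and 2701 CPM in dKO sham. In control TAC it had 3470, 3363 and 2221 CPM, against 2649, 1730 and 2714 CPM in control sham. The dKO TAC libraries were above all dKO sham and all control TAC libraries, while the control groups overlapped. The log2 fold change was 0.49 ± 0.28 for TAC in dKO (edgeR, adjusted p = 0.271), 0.60 ± 0.28 for dKO after TAC (adjusted p = 0.567) and 0.53 ± 0.20 for dKO averaged over surgeries (adjusted p = 0.316), none of which passed. Averaged over genotypes, TAC gave 0.42 ± 0.19 (edgeR, adjusted p = 0.158). That value became 0.56 (adjusted p = 0.0235) when the trend with transcript length was removed from each library.

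Hspb6, a phosphorylatable small heat shock protein of cardiac and smooth muscle, had 910.4, 1648 and 1007 CPM in dKO TAC, against 1243, 796 and 793 CPM in dKO sham. In control TAC it had 1581, 1368 and 874 CPM, against 875, 686 and 874 CPM in control sham. In each genotype the groups overlapped, in control through control TAC replicate 3. The log2 fold change of TAC in control was 0.65 ± 0.30 (edgeR, adjusted p = 0.3). Averaged over genotypes it was 0.49 ± 0.21 (edgeR, adjusted p = 0.134), and 0.65 (adjusted p = 0.0114) with the length trend removed. In control TAC replicate 3, where the fibroblast markers summed to 10007 CPM, Hspb6, Hspb7, Hspb8 and Cryab were each the lowest of the group. Hspb1, the remaining small heat shock gene, was the highest of the group there, at 227 CPM. The part of other cells in those values was not tested.

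Hspb8, which works with the co-chaperone Bag3 in the disposal of damaged filamin, differed little between groups in the main fit. It had 451, 599 and 607 CPM in dKO TAC, against 637, 448 and 443 CPM in dKO sham. In control TAC it had 571, 544 and 474 CPM, against 546, 429.9 and 618 CPM in control sham. All groups overlapped, and the group means lay between 509 and 552 CPM. Its estimates in all 4 pairwise comparisons were smaller than their SE in that fit. With the length trend removed, TAC in dKO gave 0.44 ± 0.17 (edgeR, unadjusted p = 0.0223, adjusted p = 0.109). In that setting dKO after sham gave -0.39 ± 0.17 (edgeR, unadjusted p = 0.0417, adjusted p = 0.564), and neither passed.

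Hspb1, the mouse HSP25, and Cryab showed their highest values in the libraries that stood apart. Hspb1 had 179.7, 368 and 202 CPM in dKO TAC, against 464, 166 and 171 CPM in dKO sham, with dKO TAC replicate 2 and dKO sham replicate 1 the high ones. It had 191, 206 and 227 CPM in control TAC, against 139, 179.5 and 253 CPM in control sham. Cryab had 1589, 3485 and 1720 CPM in dKO TAC, against 4307, 1643 and 1624 CPM in dKO sham, led by the same libraries. In control TAC Cryab had 1943, 1758 and 1343 CPM, against 1518, 1269 and 1651 CPM in control sham. The Cryab estimate for dKO after sham was 0.77 ± 0.41 (edgeR, adjusted p = 0.507) with all libraries and 0.14 without those libraries. That for Hspb1 was 0.49 ± 0.40 (edgeR, adjusted p = 0.583) with all libraries and -0.18 without them.

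The merged exons of Hspb1 span 1031 nt and those of Cryab 1479 nt, the shortest of the 10 genes. In dKO sham replicate 1, Hspb1 was 2.75 times and Cryab 2.64 times the mean of the other 2 libraries, and the trend over all genes at their lengths was 2.44 times and 2.03 times. In dKO TAC replicate 2, Cryab was 2.11 times and Hspb1 1.93 times the others, where the trend was 1.38 times and 1.47 times. Hsp90aa1 lay below the others in both libraries, where the trend at its length was 1.08 times in dKO TAC replicate 2 and 1.09 times in dKO sham replicate 1. The other genes lay on both sides of the trend in dKO sham replicate 1. Hspb6 was 1.57 times the others where the trend was 1.55 times, and Hspb7 1.52 times where it was 1.38 times. Hspb8 was lower at 1.43 times where the trend was 1.72 times, as was Hspa1b at 0.872 times where it was 1.37 times. Dnajb1 was higher at 1.53 times where the trend was 1.25 times. Hspa8, the longest of the 10 genes at 4301 nt, was 1.455 times the others where the trend was 1.026 times. Hspa1a was 1.457 times the others where the trend was 1.315 times. Hspb2, whose transcript is also short, overlaps Cryab on the opposite strand by 252 nt of exon, and 15% of Cryab windows are shared with it.

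**Figure D3:**
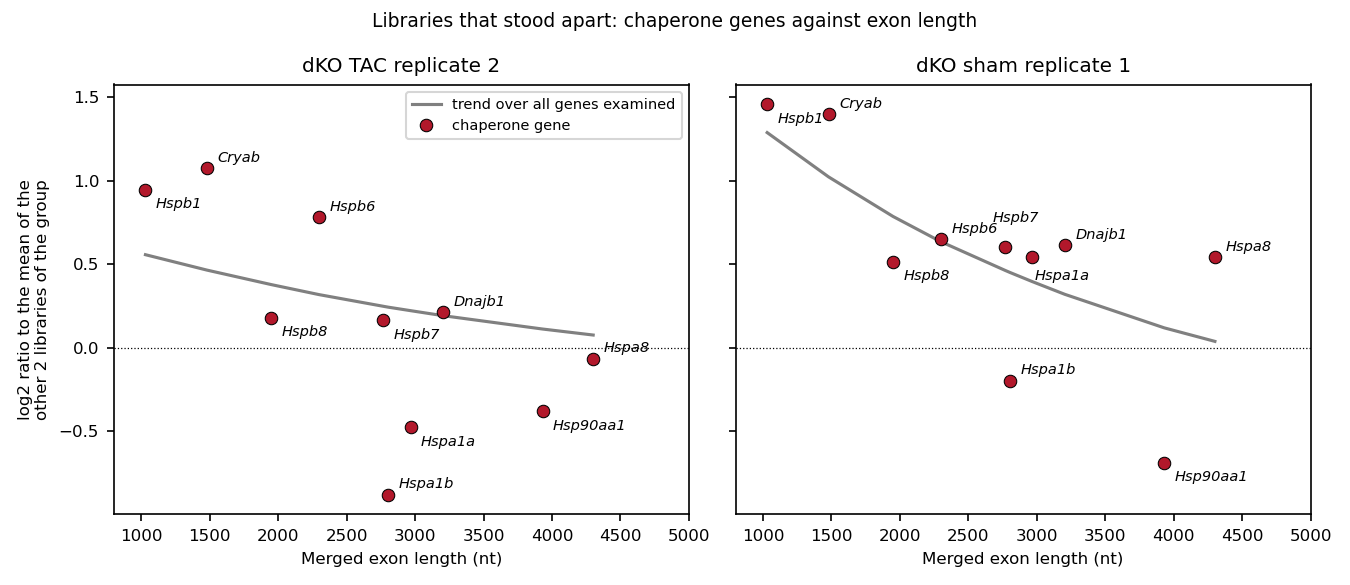
log2 ratio of each chaperone gene in dKO TAC replicate 2 (left) and dKO sham replicate 1 (right) to the mean of the other 2 libraries of its group, against merged exon length in nt; the grey line is the trend over 9741 genes read at the same lengths. Hspb1 and Cryab lie highest in both libraries, and Hsp90aa1 lies below 0 in both.

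Hspa8, the constitutive HSC70, had 910.4, 937 and 1052 CPM in dKO TAC, against 1207, 809 and 851 CPM in dKO sham. In control TAC it had 944, 959.6 and 907 CPM, against 763, 837 and 975 CPM in control sham. Its highest library was 1.06 to 1.49 times its lowest within groups, all groups overlapped, and its estimates in the 4 pairwise comparisons were smaller than their SE. Of its 100-nt windows 63.4% occur in 9 other genes, mainly pseudogenes, and the 8 of them in the table held counts equal to 0.628% of those of Hspa8.

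The heat-inducible pair Hspa1a and Hspa1b varied most of the 10 genes between libraries of the same group in dKO TAC, control TAC and control sham, but not in dKO sham, where Hspb1 and Cryab did. Hspa1a had 19.2, 24.2 and 48.3 CPM in dKO TAC, against 24.4, 16.8 and 16.6 CPM in dKO sham, and 9.96, 30.0 and 97.3 CPM in control TAC, against 7.91, 34.4 and 49.4 CPM in control sham. Hspa1b had 15.4, 14.6 and 38.6 CPM in dKO TAC, against 9.15, 9.03 and 11.97 CPM in dKO sham, and 6.29, 23.3 and 72.0 CPM in control TAC, against 3.84, 24.96 and 24.1 CPM in control sham. The highest library was up to 9.76 times the lowest of its group for Hspa1a and 11.4 times for Hspa1b, both in control TAC, against at most 1.71 times for Hsp90aa1. The log2 fold change of Hspa1b for TAC was 1.18 ± 0.78 in dKO (edgeR, adjusted p = 0.341), with all TAC libraries above all sham libraries, and 0.94 ± 0.76 in control (adjusted p = 0.614). The control estimate became -0.25 without control TAC replicate 3.

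The pair lies on mouse chromosome 17, on the same strand and 9951 nt apart, and 49.9% of Hspa1b windows occur in Hspa1a, so the split of reads between the copies is uncertain. Their sum had 34.5, 38.9 and 86.9 CPM in dKO TAC, against 33.5, 25.9 and 28.6 CPM in dKO sham. It had 16.2, 53.3 and 169 CPM in control TAC, against 11.7, 59.3 and 73.5 CPM in control sham. Hspa1a took 55.5% to 72.7% of the pair's counts in each library. Replicate 1 was the lowest library of both control groups. Whether replicate numbers pair libraries across the groups could not be decided.

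Dnajb1, the HSP40 partner of inducible HSP70, had 32.7, 61.3 and 72.8 CPM in dKO TAC, against 110.2, 77.1 and 67.2 CPM in dKO sham. In control TAC it had 29.7, 42.4 and 96.5 CPM, against 29.4, 88.0 and 123 CPM in control sham. The groups overlapped in both genotypes. The log2 fold change for TAC in dKO was -0.61 ± 0.51 (edgeR, adjusted p = 0.459), opposite in sign to that of Hsp90aa1. Dnajb1 shares no 100-nt window with another gene.

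Cells had been perfused and sedimented at 37 °C before lysis, and immediate early genes such as Fos, Jun and Egr1, which respond within minutes to cell handling or stimulation, were read beside the inducible chaperones. The 12 immediate early genes summed to 1550, 2678 and 1912 CPM in dKO TAC, against 3993, 3871 and 4011 CPM in dKO sham. They summed to 1682, 1556 and 4554 CPM in control TAC, against 2016, 3643 and 5375 CPM in control sham. The estimates of all 12 were negative for TAC in dKO, and edgeR called 0 of them, whereas averaged over genotypes, where 16.6% of all genes were called in either direction, TAC lowered 3 of the 12: Dusp1 (log2 -0.80, edgeR adjusted p = 0.026), Egr1 (-0.94, adjusted p = 0.0497) and Ier2 (-1.30, adjusted p = 0.0259). In the control groups, Dnajb1, Hspa1a and the immediate early sum were all highest in replicate 3 of each group, and their part in each other's values was not tested.

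**Figure D4:**
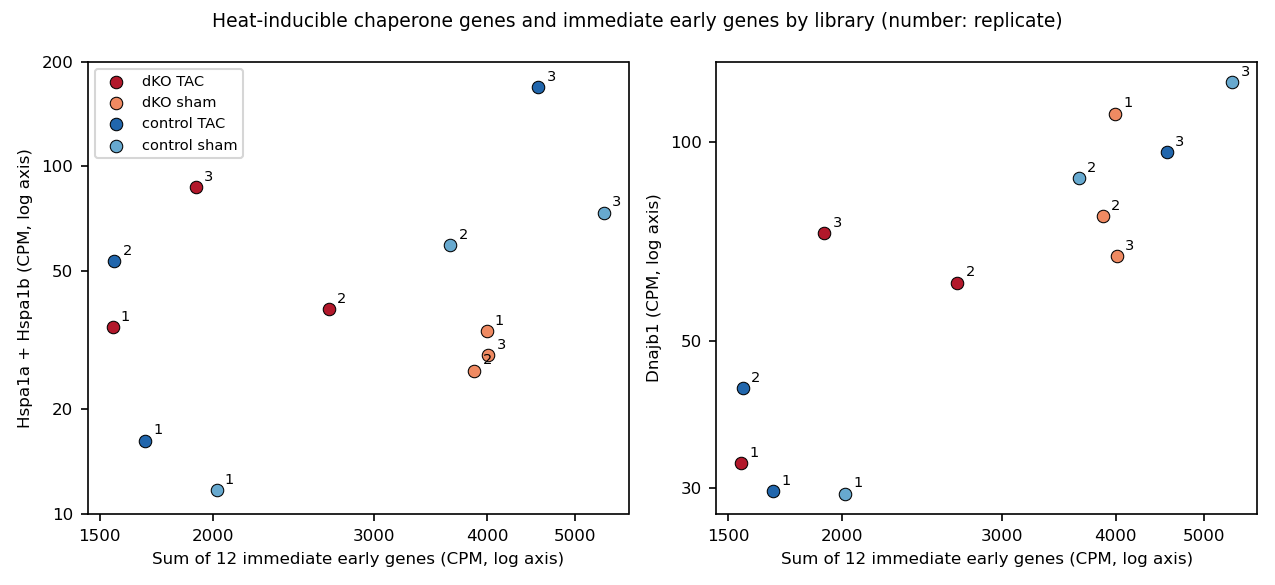
Sum of Hspa1a and Hspa1b (left) and Dnajb1 (right) in CPM against the sum of 12 immediate early genes in CPM, all on log axes; each point is a library, coloured by group and numbered by replicate. The dKO sham libraries lie together at 3871 to 4011 CPM of immediate early genes, and the control libraries spread from 1556 to 5375 CPM.

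Across genotypes, none of the 10 genes passed. For dKO after TAC edgeR called 0 of 10, with 1 of 10 at an unadjusted p under 0.05 (DESeq2 called 0, limma-voom 0), against 0.428% of all genes called. For dKO after sham it called 0 of 10, with 0 at an unadjusted p under 0.05 and 0 by either other tool, against 0.068% of all genes. Averaged over surgeries it called 0 of 10, with 1 of 10 unadjusted and 0 by either other tool, against 0.585%. The interaction called 0 of 10, with 0 unadjusted and 0 by either other tool, against 0% of all genes. Of the 10, 2 had all dKO TAC libraries above all control TAC libraries (Hsp90aa1 and Hspb7), against 9.8% of all genes above and 17.6% not overlapping in either direction; after sham the number was 0, against 9.27% above and 18.7% in either direction. The median log2 difference of the 10 genes was 0.05 for dKO after TAC and 0.12 for dKO after sham, against -0.03 and 0.02 over all tested genes.

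The wider chaperone network was read from 73 further genes, of which 68 were tested (Hspb9, Cryaa, Dnajb3, Dnajb13 and Hsf5 were too low). TAC in dKO raised 3 and lowered 1 of the 68, against 7.39% of all tested genes called in either direction, so the share of the list called was not above that of all genes. Hspa1l, an HSP70 gene known from testis, had 18.0, 13.7 and 18.4 CPM in dKO TAC, against 5.47, 5.79 and 6.25 CPM in dKO sham (log2 1.51, edgeR adjusted p = 0.00572). It had 11.8, 14.3 and 7.05 CPM in control TAC, against 4.98, 5.14 and 5.51 CPM in control sham (1.08, edgeR adjusted p = 0.0407), the 1 related gene called there, against 2.25% of all genes. Hspa1l lies 546 nt from Hspa1a on the opposite strand and shares 70.8% of its windows with other genes, so its counts are uncertain.

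Dnajb4, an HSP40 gene, had 191, 138 and 219.9 CPM in dKO TAC, against 64.8, 105.9 and 100.1 CPM in dKO sham (log2 1.02, edgeR adjusted p = 0.0241). Cct8, a subunit of the TRiC chaperonin that folds actin and tubulin, had 227, 228 and 221 CPM in dKO TAC, against 162, 133 and 126 CPM in dKO sham (0.68, edgeR adjusted p = 0.0253). Fkbp4, an immunophilin that binds HSP90, fell to 97.7, 195 and 120.3 CPM in dKO TAC, against 691, 370 and 349.9 CPM in dKO sham (-1.77, edgeR adjusted p = 0.0139). For each of the 4 genes the dKO TAC and dKO sham libraries did not overlap, which their call in this same comparison makes likely. Of the 68, 10 had all dKO TAC libraries above all dKO sham libraries and 13 had them below. Of all genes, 30.7% did not overlap in either direction. The interaction called 0 of the 68 (DESeq2 called 0, limma-voom 0), and edgeR called 0 of all 14712 genes. At an unadjusted edgeR p under 0.05 there were 4 of the 68, against 697 of all genes. The changes of the 4 genes were therefore not shown to differ from control.

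For dKO after TAC, 1 of the 68 was called, against 0.428% of all genes: Dnajb5, an HSP40 gene, was lower at 42.6, 49.8 and 52.5 CPM in dKO TAC, against 121, 103.6 and 75.9 CPM in control TAC (log2 -1.05, edgeR adjusted p = 0.0376). For dKO after sham 0 of 68 were called, and 0 by DESeq2 or limma-voom, against 0.068% of all genes called by edgeR. At an unadjusted edgeR p under 0.05 there were 4 of the 68, against 1361 of all 14712 genes. The calls of Hspa1l in control, Cct8 and Dnajb5 ended in 14, 8 and 13 of the 22 alternatives run, in that order, among them the fit of only the groups compared. Those of Dnajb4 and Fkbp4 ended without dKO TAC replicate 1 (adjusted p = 0.0982 and 0.0828) or replicate 3 (0.0938 and 0.0683), that of Dnajb4 also when only dKO libraries were fitted (0.086), and that of Hspa1l in dKO held in each.

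**Figure D5:**
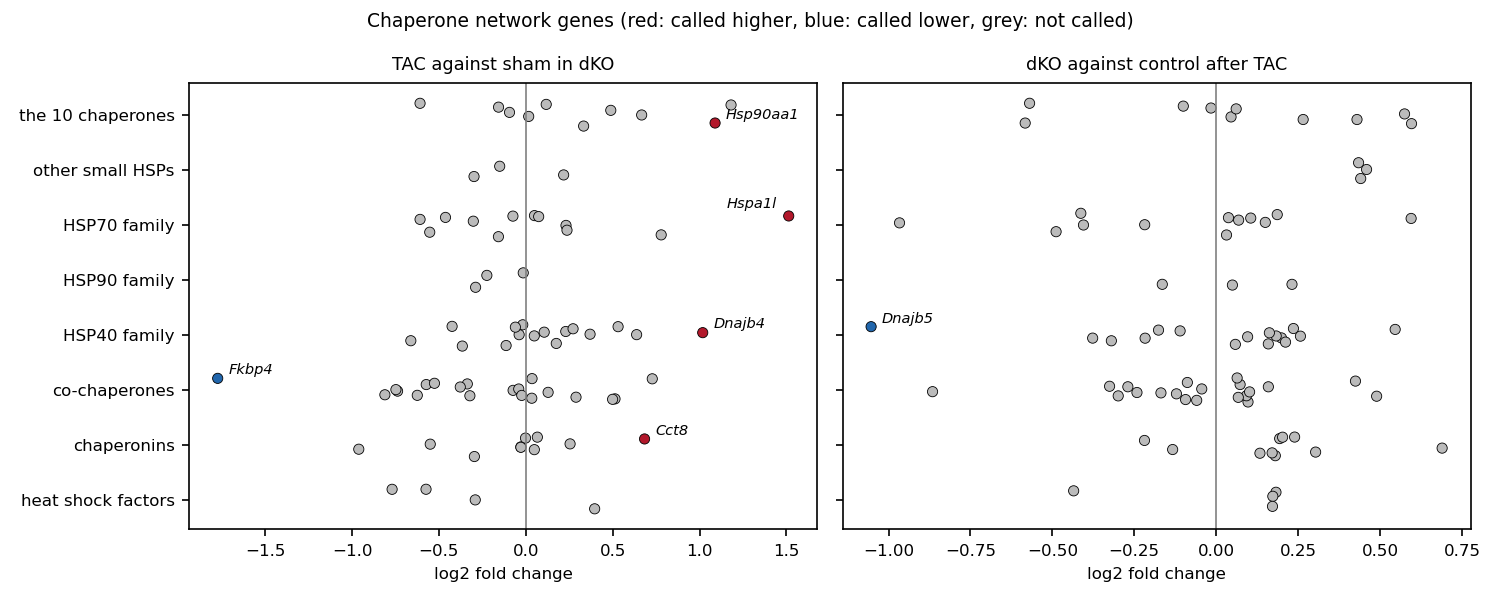
log2 fold change (edgeR) of the 10 chaperones and of the 68 tested related genes by family, for TAC against sham in dKO (left) and dKO against control after TAC (right); each point is a gene, red called higher, blue called lower, grey not called, and vertical jitter has no meaning. Hspa1l, Hsp90aa1, Dnajb4 and Cct8 are red and Fkbp4 is blue on the left, and Dnajb5 is blue on the right.

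HSF1 itself, the regulator of heat shock genes, had 22.8, 29.5 and 20.5 CPM in dKO TAC, against 44.2, 31.6 and 32.7 CPM in dKO sham. The groups did not overlap, and the log2 fold change of Hsf1 was -0.57 ± 0.19 (edgeR, adjusted p = 0.0771). In control TAC Hsf1 had 34.5, 35.6 and 28.4 CPM, against 30.4, 33.6 and 32.7 CPM in control sham, with overlap. Of 12 other HSF1 heat shock targets, TAC in dKO raised 1 (Dnajb4) and lowered 1 (Fkbp4), against 7.39% of all tested genes called in either direction. The 12 estimates there were 5 positive and 7 negative. TAC in control raised 1 of the 12, against 2.25% of all genes. That gene was Serpinh1, the collagen chaperone HSP47 (log2 1.14, edgeR adjusted p = 0.0486). Serpinh1 had 248.5, 457 and 354 CPM in control TAC, against 137, 197 and 146 CPM in control sham. Hsph1, a nucleotide exchange factor of HSP70, averaged 43.2 ± 11.7 CPM in dKO TAC and 65.8 ± 7.32 CPM in dKO sham (SD, n = 3 each, edgeR adjusted p = 0.148).

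Hsp90ab1, Hspa5, Bag3 and Hspb2 had no called difference in the pairwise comparisons. Hsp90ab1, the constitutive HSP90, averaged 1307 ± 176 CPM in dKO TAC and 1527 ± 257 CPM in dKO sham, and 1263 ± 148 CPM in control TAC and 1317 ± 39.1 CPM in control sham (SD, n = 3 each). Hspa5, the HSP70 of the endoplasmic reticulum, averaged 416 ± 46.9 CPM in dKO TAC and 464 ± 23.9 CPM in dKO sham, and 484 ± 81.7 CPM in control TAC and 514 ± 24.97 CPM in control sham (SD, n = 3 each). Bag3 averaged 272 ± 31.5 CPM in dKO TAC and 249 ± 35.8 CPM in dKO sham, and 254 ± 24.6 CPM in control TAC and 250 ± 46.7 CPM in control sham (SD, n = 3 each). Hspb2 had 61.5, 98.4 and 57.7 CPM in dKO TAC, against 168, 53.9 and 46.8 CPM in dKO sham, high in the same libraries as Cryab.

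The genes whose levels ranked the 12 libraries most like each chaperone were sought among the 8182 genes averaging 10 CPM or more, by Spearman's rho over 12 libraries, which share their depth, RNA length profile and cell makeup. Hspb8 was ranked most like Bag3 (rho 0.958) and Hspb6 most like Bag2 (0.937). Hspb7 was ranked most like Adamtsl5 (0.979) and Itga7 (0.972), and Cryab most like Hagh (0.972) and Aimp2 (0.951). Hsp90aa1 was ranked most like Vps33b (0.986) and Rtn4 (0.972). Dnajb1 was ranked most like Fbf1 (0.895) and Csrnp1 (0.888), Hspa1b most like Crispld2 (0.895), Hspa1a most like 8430408G22Rik (0.839), Hspb1 most like Dcaf15 (0.888) and Hspa8 most like Myl12a (0.839). Among the 10 genes the closest pair was Hspa1a and Hspa1b (0.916), followed by Hspb1 and Hspa8 (0.804), and Hsp90aa1 and Dnajb1 were at -0.266.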

How the data were processed

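Raw read counts per gene of 12 libraries were deposited by the authors as 1 table of whole numbers for 49568 genes, and 21344 of these were at 0 throughout. The submitters' processing notes name Trimmomatic 0.36, STAR 2.5.2b, featureCounts and Subread 1.5.0p3, and the build GRCm38.p5. For strand, annotation and multi-mapped reads, the settings were not given in the sources used here. Per the labels' protocols, libraries were stranded poly(A) libraries read as single ends of 100 nt. Labels do not say whether replicates were separate animals, so p-values measure the spread between these libraries. Replicates of a group all differed beyond sampling noise (chi-square per degree of freedom of 17.3 to 310).

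The counts were tested with edgeR 4.0.16 (R 4.3.3): TMM normalization, filterByExpr by group (14712 genes), all 12 libraries in 1 quasi-likelihood fit with 8 residual degrees of freedom, and Benjamini-Hochberg adjustment over all genes, called at 0.05. Levels are CPM on TMM-scaled sizes, and 3 counts correspond to 0.0935 to 0.184 CPM, covering counting error only. The SE is the log2 change divided by the square root of F. Sign changes under the alternatives are listed for log2 estimates that exceed their SE. Alternatives were DESeq2 1.42.0, limma-voom (limma 3.58.1), other size factors, filters and sample sets, a replicate block, removal of each library's length trend, and leaving libraries out. Exon lengths, loci and shared windows came from GENCODE M21 on GRCm38, and promoters from RefSeq on GRCm38.p6. The genes named are the 10 chaperones, the called related genes (up to 5 per direction), Hsf1, Bag3, Hsph1, Hsp90ab1, Hspa5 and Hspb2, and the most alike genes; Serpinh1 and the 3 immediate early genes called were added after their values were seen. The members and lists were chosen with earlier results of these data known. The fit was checked on simulated counts.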

Additional observations from a re-analysis of the deposited data

How the results depend on the processing

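The number of chaperones called for TAC in dKO was 0 when only the groups compared were fitted and 0 to 1 when each library was left out in turn, and the Hsp90aa1 estimate then lay between 0.89 and 1.25 on the log2 scale. Averaged over genotypes, TAC called 3 chaperones (Hspb6, Hspb7 and Hsp90aa1) with the length trend removed, with or without the block, against 1 otherwise. Of all 14712 tested genes, removal of the length trend called 1809 up and 1203 down, and 1796 up and 1123 down with the block. The main fit called 1402 up and 1042 down. Related genes called for TAC in control numbered 0 with a mean CPM of at least 5, with only the groups compared, with limma-voom, with the replicate block and with the length trend removed (with or without the block), and 0 to 1 when libraries were left out. For TAC in dKO they numbered 9 with DESeq2, 2 with only the groups compared, 10 with the length trend removed and 9 with the block as well. They numbered 8 without dKO TAC replicate 2 and dKO sham replicate 1, and 1 to 5 when libraries were left out. Over all tested genes, TAC in dKO called 618 up and 469 down in the main fit, and 1137 up and 1239 down with DESeq2. It called 885 up and 645 down with the length trend removed, and 885 up and 695 down without those libraries. For dKO after TAC the related genes called numbered 3 with DESeq2, 3 with the length trend removed and 5 without those libraries. They numbered 0 with only the groups compared or with the replicate block, and 0 to 3 when libraries were left out. Over all tested genes, that comparison called 45 up and 18 down in the main fit, and 202 up and 118 down with DESeq2. It called 72 up and 44 down with the length trend removed, and 353 up and 155 down without those libraries. The cause was not tested.

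Estimates of log2 change that exceeded their SE reversed in sign as follows. Hspb1 for dKO after sham was -0.17 with the length trend removed, -0.135 with the block as well, -0.176 without the libraries that stood apart, and -0.176 to 0.74 when libraries were left out; averaged over surgeries it was -0.012 with the length trend removed and, with those or single libraries left out, -0.149 to 0.508. Cryab for dKO after TAC was -0.022 without them and -0.011 to 0.64 when libraries were left out. Hspa1b for TAC in control was -0.253 to 1.43 when libraries were left out. Estimates smaller than their SE changed sign in 133 further values, out of 1510 recomputed in all. Among them, for TAC in dKO, Hspb1 was -0.09 with all libraries and 0.53 with the length trend removed (edgeR, unadjusted p = 0.0234, adjusted p = 0.112), and Cryab was -0.16 and 0.33. Same-numbered libraries of different groups had correlations of -0.661 to 0.510, against -0.629 to 0.593 for differently numbered libraries. In dKO this check cannot decide whether the numbers pair samples, because the libraries that stood apart carry different numbers. In control, same-numbered TAC and sham libraries had correlations of 0.510, 0.424 and -0.200. The replicate block left 1 chaperone called for TAC in dKO and changed no other chaperone call. With 3 libraries a group, the number of libraries and their spread limited what could be called for Hspa1a, Hspa1b and Dnajb1, and the split of shared reads limited Hspa1a and Hspa1b as well.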
